A study of Mus musculus with 4 samples.

Results

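Insulin and IGF signalling was followed through 10 genes: Insr, Irs1, Irs2, Akt2, Pik3r1, Foxo1, Igf1, Igfbp1, Igfbp2 and Igfbp4. They were chosen by name, as every probe other than controls that the array files assign to one of these genes, which gave 22 probes of 55681 and 10 genes of 24637 genes and named features. The RNA came from hepatocytes of mice of the strain labelled bl6, grown in medium with 10% fetal bovine serum. Overnight, both groups received 5 µM of the statin simvastatin and 100 µM mevalonic acid in medium whose serum was lowered to 0.5%, together with 1 µM GW3965, which activates the liver X receptors (LXR), or with its vehicle DMSO. Each group had 2 arrays of 1 colour, called replicates a and b, so the DMSO arrays describe statin-treated cells and not untreated ones, and no arm without statin or with added insulin was analysed here. Nothing in the labels ties a replicate to an animal or culture of its own, so p-values measure only the spread between these samples. The comparison asks whether transcripts of the insulin and IGF pathway differ in hepatocytes given the LXR agonist.

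Insulin binds the insulin receptor, which phosphorylates the adaptor proteins IRS1 and IRS2. These recruit phosphatidylinositol 3-kinase, whose lipid product activates the kinase AKT2, and AKT2 in turn keeps the transcription factor FOXO1 out of the nucleus. In the fasted liver FOXO1 is active and raises Igfbp1, Irs2, Insr and genes of glucose production. The liver is also the main source of circulating IGF1, and the binding proteins encoded by Igfbp1, Igfbp2 and Igfbp4 hold IGFs in blood and tissue and limit their access to receptors.

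Some of these genes carry the recognition sequence of the pathway at their promoters, and the windows that hold it are shown because the genes beside it are known or candidate targets of FOXO factors. The insulin response sequence core, TGTTTTG on one strand or CAAAACA on the other, was looked for in RefSeq promoter windows of GRCm38.p6 that run from 250 bases before to 50 bases after a start site. Windows were found for 9 of the 10 genes, 14 in all, and 3 of the 14 held it, those of Irs1, Irs2 and Igfbp1, where 6.28% of all 32851 windows did. The E-box CACGTG, a motif added after the sequences were seen, stood in 3 of the 14 windows, those of Irs1, Irs2 and Igfbp2, against 7.15% of all windows. The FOXO core GTAAACA and the LXR direct repeat, which is 2 AGGTCA sites with any 4 bases between them, were looked for on both strands and were in 0 of the 14, against 3.65% and 0.0152% of all windows. The 3 windows with an insulin response sequence core follow 5′ to 3′ on the strand of the gene, with every match to that core or to the E-box in capitals. They are chr1:82291390-82291689 (minus strand) for Irs1, chr8:11008880-11009179 (minus strand) for Irs2 and chr11:7197537-7197836 (plus strand) for Igfbp1.
Irs1: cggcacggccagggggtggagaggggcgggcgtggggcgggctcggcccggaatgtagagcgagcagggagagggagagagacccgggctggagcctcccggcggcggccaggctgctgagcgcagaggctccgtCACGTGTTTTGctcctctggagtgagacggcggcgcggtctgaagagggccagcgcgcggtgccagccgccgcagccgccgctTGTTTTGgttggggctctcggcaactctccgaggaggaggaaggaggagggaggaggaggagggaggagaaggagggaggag
Irs2: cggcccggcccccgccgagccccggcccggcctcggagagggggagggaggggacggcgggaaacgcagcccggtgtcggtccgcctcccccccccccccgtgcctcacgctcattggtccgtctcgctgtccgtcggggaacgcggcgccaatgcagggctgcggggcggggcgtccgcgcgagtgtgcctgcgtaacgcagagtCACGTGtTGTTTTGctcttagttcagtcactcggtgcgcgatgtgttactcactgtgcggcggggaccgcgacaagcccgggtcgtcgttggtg
Igfbp1: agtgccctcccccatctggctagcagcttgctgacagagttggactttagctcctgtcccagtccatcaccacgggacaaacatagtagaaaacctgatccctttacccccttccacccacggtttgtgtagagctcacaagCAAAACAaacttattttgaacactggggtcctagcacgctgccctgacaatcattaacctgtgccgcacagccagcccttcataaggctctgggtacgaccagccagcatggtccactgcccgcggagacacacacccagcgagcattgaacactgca
In Irs1 the E-box lay from -115 to -110 relative to the start site and overlapped the first core, from -111 to -105, while a second core stood from -32 to -26. In Irs2 the E-box lay from -44 to -39 and the core from -37 to -31, with 1 base between them. In Igfbp1 the core lay from -108 to -102, written there as CAAAACA. Both motifs together were in 2 of the 14 windows and in 0.408% of all windows. Because the E-box was picked after these windows were seen, the 2 shares cannot be weighed against each other. The 10 genes were chosen for this pathway, so their share with the insulin response sequence core is no test against all windows. These are matches of letters and no measure of binding.

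None of the 10 genes passed the test between GW3965 and DMSO, and only in Foxo1 was the difference between groups larger than the gap between replicates. With 2 arrays per group, a difference larger than the mean gap is the same condition as groups that do not overlap. By limma over all 24637 genes, 0 of the 10 had an adjusted p under 0.05 and 0 had an unadjusted p under 0.05, where 0% and 0.824% of all genes did. The means of 6 genes were higher with GW3965 and those of 4 were lower, and 48.5% of all genes had a higher mean. The log2 differences ran from -0.22 to 0.38, with a median of 0.10 against -0.01 over all genes, and none reached a fold of 1.5, which 2.2% of all genes did. The treatment was visible on the same arrays in the LXR target Abca1, a cholesterol exporter, at 3.31 and 3.85 on GW3965 replicates a and b against 1.46 and 0.55 on DMSO replicates a and b. Srebf1, which encodes SREBP factors and is both an LXR target and an insulin-induced gene of the liver, stood at 0.37 and 0.43 against -0.96 and -0.72 in the same order. Neither passed the adjusted test, which called 0 of the 24637 genes (limma, adjusted p = 0.99997 for both), so 0 of 10 genes passing does not show that they were alike in both groups. These and all levels that follow are log2 signals relative to the 75th percentile of the array, and every difference is on the log2 scale.

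**Figure D1:**
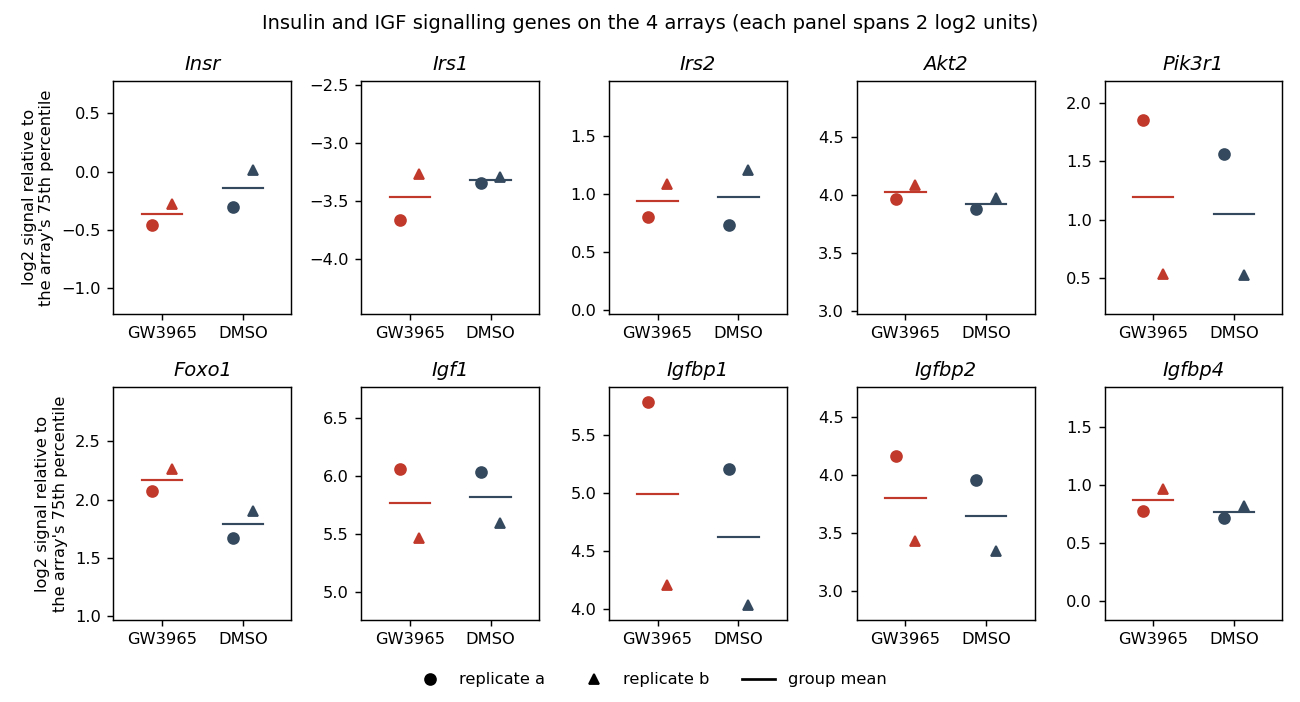
Level of each of the 10 genes on each array, as log2 signal relative to the array's 75th percentile, with GW3965 left of DMSO, circles for replicate a, triangles for replicate b and a line at the group mean. The groups are apart for Foxo1 alone, and in Pik3r1, Igf1, Igfbp1 and Igfbp2 replicate a lies above replicate b in both groups.

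Foxo1, the transcription factor that insulin signalling restrains, was the only one of the 10 whose groups did not overlap. Its difference and that of Igfbp1 were the largest, and their order changed with the processing: Foxo1 led by 0.38 against 0.37 here, and Igfbp1 led by 0.37 against 0.35 with normexp background correction and by 0.37 against 0.30 with the mean of the probes. The level of Foxo1 was 2.07 and 2.26 on GW3965 replicates a and b, against 1.67 and 1.90 on DMSO replicates a and b. Both GW3965 arrays thus lay above both DMSO arrays, by a difference of 0.38 ± 0.20 (SE, 2 arrays per group), a 1.30-fold higher mean. The test was not passed (limma, adjusted p = 0.99997), and the 95% interval of the difference ran from -0.15 to 0.92. Of the 10 genes, 1 (Foxo1) was higher without overlap and 0 were lower, where 9.42% of all genes were higher and 6.53% lower without overlap, so a count of 1 is close to the background. A second Foxo1 probe, 2501 bases further along the transcript, stood at 0.84 and 0.73 with GW3965 against 0.54 and 0.59 with DMSO. There too the groups did not overlap, with a difference of 0.22 ± 0.19 (SE) when each probe was fitted on its own. With each probe on its own, 3 of the 21 measured probes of the 10 genes were higher without overlap, both of Foxo1 and 1 of Insr, where 10.1% of all measured probes were. Groups of this size allow an exact two-sided permutation p of 0.333 at the lowest. Which other genes overlapped depended on the scaling: with arrays centred on their median, 5 genes did not overlap, Foxo1, Akt2 and Igfbp4 higher and Insr and Irs1 lower, where 18.1% of all genes did not.

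Insr encodes the receptor itself, and its mean was lower with GW3965. The probe that stands for it lay at -0.46 and -0.27 on GW3965 replicates a and b, against -0.30 and 0.01 on DMSO replicates a and b. The groups overlapped, and the difference was -0.22 ± 0.22 (SE), with a 95% interval from -0.79 to 0.34 (limma, adjusted p = 0.99997). Its 3 probes did not run the same way: the probe nearest the transcript's start was higher with GW3965 by 0.105 ± 0.19 without overlap, and the one furthest along was lower by -0.11 ± 0.27.

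The adaptors Irs1 and Irs2 carry the signal from the receptor. SREBP factors, the products of Srebf1 among them, are known to repress Irs2 in mouse liver. Irs2 stood at 0.80 and 1.08 on GW3965 replicates a and b, against 0.73 and 1.21 on DMSO replicates a and b. The DMSO arrays bracketed the GW3965 arrays, and the difference was -0.03 ± 0.25 (SE), with a 95% interval from -0.70 to 0.64. Irs1 was dim, at -3.67 and -3.27 with GW3965 against -3.35 and -3.29 with DMSO. GW3965 replicate a was the lowest of the 4 arrays, and the difference of -0.15 ± 0.22 (SE) turned to 0.05 without that array. The other Irs1 probe, at position 5219 of the transcript, was not well above background on any array.

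Pik3r1 encodes the main regulatory subunit of phosphatidylinositol 3-kinase, and Akt2 the AKT kinase that serves insulin action in liver. Pik3r1 was at 1.86 and 0.53 on GW3965 replicates a and b, against 1.57 and 0.52 on DMSO replicates a and b. Here the 2 replicates of a group lay further apart than the groups, by 2.51-fold with GW3965 and 2.06-fold with DMSO, and the difference between groups was 0.15 ± 0.58 (SE). Akt2 was the most even of the 10 genes, at 3.96 and 4.08 with GW3965 against 3.88 and 3.97 with DMSO. Its difference was 0.10 ± 0.19 (SE), with a 95% interval from -0.39 to 0.59. Of the 4 Akt2 probes, 2 share 53 bases and are not independent, and the probe at position 1052 differed by -0.12 ± 0.22 where the other 3 had differences above 0.

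**Figure D2:**
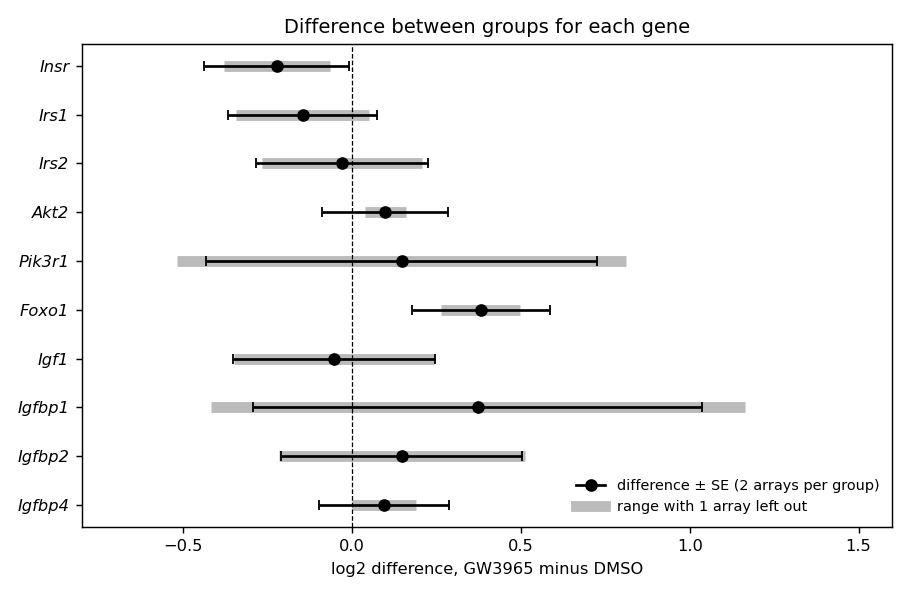
Log2 difference of each gene, GW3965 minus DMSO, with points for the difference, error bars for ±SE from limma (2 arrays per group) and grey bars for the range when each of the 4 arrays was left out in turn. The grey bars cross 0 for 6 of the 10 genes, and those of Pik3r1 (-0.52 to 0.81) and Igfbp1 (-0.42 to 1.16) are the widest.

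Igfbp1, a binding protein that insulin represses, had a difference close to that of Foxo1 in size, with far wider spread. It stood at 5.78 and 4.20 on GW3965 replicates a and b, against 5.21 and 4.04 on DMSO replicates a and b. The GW3965 array lay above the DMSO array of the same letter, by 0.58 for a and 0.17 for b, but replicate a of each group lay far above replicate b of either, so the groups overlapped. The difference was 0.37 ± 0.66 (SE), with a 95% interval from -1.37 to 2.11 (limma, adjusted p = 0.99997), and leaving out 1 array moved it to -0.42 (GW3965 replicate a) or 1.16 (GW3965 replicate b). Igfbp2 followed the same order of arrays, at 4.16 and 3.43 with GW3965 against 3.95 and 3.35 with DMSO, and differed by 0.15 ± 0.36 (SE). Igfbp4 did not share that order. It lay at 0.77 and 0.96 with GW3965 against 0.72 and 0.82 with DMSO, and differed by 0.10 ± 0.19.

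Igf1 encodes the ligand, and its groups overlapped. It stood at 6.06 and 5.47 on GW3965 replicates a and b, against 6.03 and 5.60 on DMSO replicates a and b. The difference was -0.05 ± 0.30 (SE), with a 95% interval from -0.83 to 0.73. The 5 Igf1 probes, each printed on 2 spots, gave differences between groups from -0.18 to 0.15, with no consistent sign.

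The Igf1 probes differed much more between replicates than between groups, and unequally along the transcript. For the probe at position 889, replicate a was 1.51-fold above replicate b with GW3965 and 1.35-fold with DMSO. For the probe at position 6909, near the far end, the same ratio was 3.64 with GW3965 and 4.21 with DMSO. The spots of that probe read 543.5 and 518 on GW3965 replicate a and 210.2 and 176.9 on GW3965 replicate b, against 711.8 and 666.7 on DMSO replicate a and 187.2 and 176.7 on DMSO replicate b, as processed signals before scaling between arrays. Both spots of this probe on each array thus gave the same order. The probe at position 3252 was dim, with a ratio of 1.21 with GW3965 and 1.85 with DMSO. The probe for another transcript, at its position 1027, gave 1.28 and 1.31. All these ratios are of signals scaled between arrays. The probe at 889 was far brighter than the one at 6909, and the part of brightness in the ratios was not tested. At 889 the mean signal before scaling was 33984.7 and 29836.3 on GW3965 replicates a and b. On DMSO replicates a and b it was 35687.4 and 29344.6. Before scaling, the spots at 1027 read 2040.1 and 1986.5 on GW3965 replicate a against 2091.1 and 2077.8 on GW3965 replicate b. Those at 3252 read 101.3 and 95.4 against 125.3 and 92.7. With GW3965, replicate a was thus not clearly above b there before scaling, while with DMSO it was for both probes. Of these 5 probes, the 2 nearest the start share 40 bases.

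**Figure D3:**
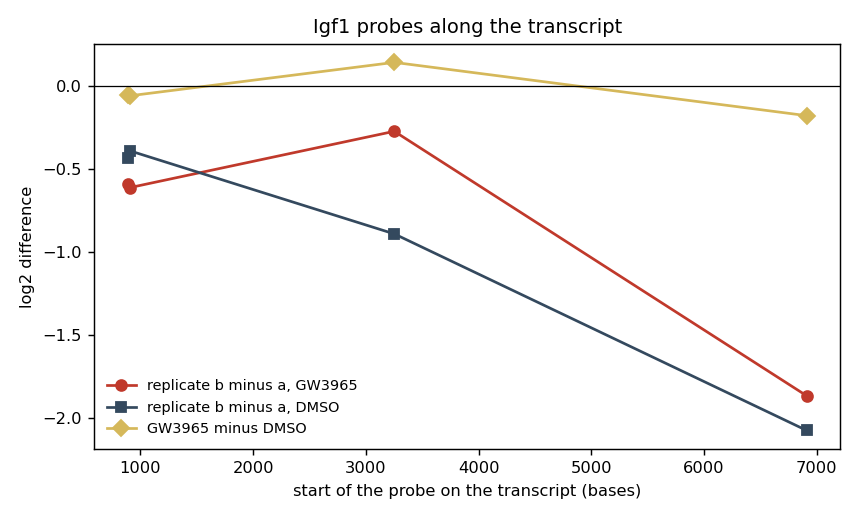
Log2 differences of the 4 Igf1 probes that share 1 transcript, against the probe's start on that transcript in bases, for replicate b minus replicate a with GW3965 (circles), with DMSO (squares) and for GW3965 minus DMSO (diamonds). The gap between replicates is -1.86 and -2.07 at position 6909 and between -0.61 and -0.39 for the probes at 889 and 909, while the difference between groups stays between -0.18 and 0.15.

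Across the 10 genes, the gap between replicates was larger than the difference between groups in 9, all but Foxo1, and in 84% of all genes. These are the genes whose groups overlapped, so the count adds nothing to the overlap given above. On the probes that stand for the genes, the gap had the same sign in both groups in all 10, against 75.1% of all genes. Another probe of each of Insr, Akt2 and Foxo1 had gaps of opposite sign. For these, b minus a was 0.11, 0.36 and -0.10 with GW3965 and -0.04, -0.135 and 0.05 with DMSO, in that order. All other measured probes of the 10 genes had gaps of 1 sign. Replicate a was higher in both groups for Pik3r1, Igf1, Igfbp1 and Igfbp2, and replicate b for Insr, Irs1, Irs2, Akt2, Foxo1 and Igfbp4. For Igfbp1 replicate a was 2.99-fold above b with GW3965 and 2.25-fold with DMSO, and only 2.59% of genes had a larger mean gap. For Irs2, replicate a was below b, at 0.82-fold with GW3965 and 0.72-fold with DMSO. The letters do not stand for a condition in the labels, so no test was made between them. Replicates a were at array positions 1 and 2 of the slide and replicates b at 3 and 4, so position and letter cannot be told apart.

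**Figure D4:**
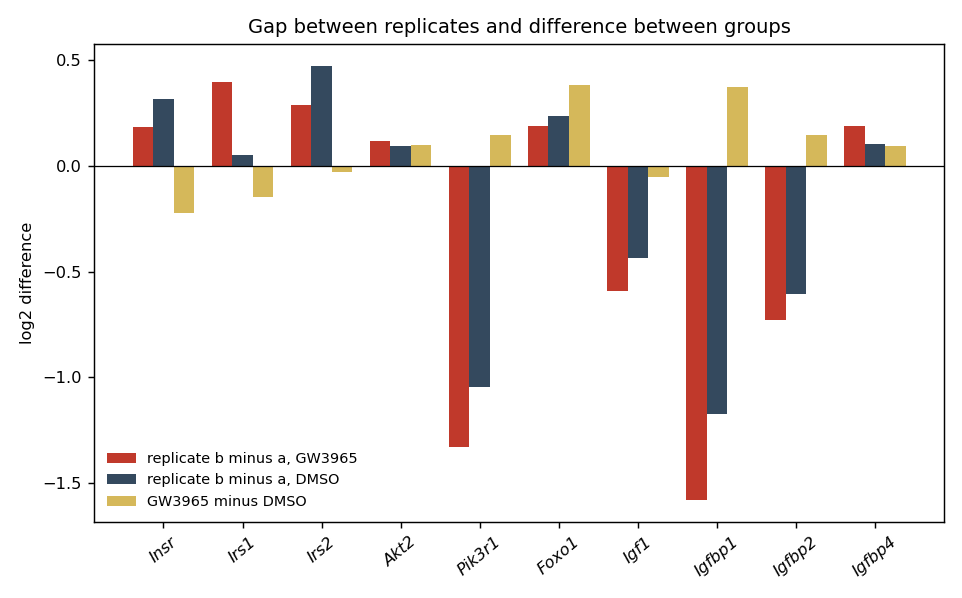
Log2 difference between replicates b and a with GW3965 (red) and with DMSO (dark blue), and between GW3965 and DMSO (yellow), for each gene. Each gene is shown by the probe that stands for it. The red and dark blue bars point the same way in all 10 genes, and they reach -1.58 and -1.17 in Igfbp1, where the yellow bar is 0.37.

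Most markers of each cell type had a gap between replicates of the same sign in both groups, and most overlapped between GW3965 and DMSO. All 12 hepatocyte markers, such as Alb and Ttr, were well above background on all arrays, and their summed level was 11.13 and 10.44 on GW3965 replicates a and b, against 11.02 and 10.67 on DMSO replicates a and b. Serpina1a and Alb dominate that sum. All 12 markers were higher on replicate a in both groups, with a median gap of -1.01 for b minus a with GW3965 and -1.0 with DMSO. All 8 measured markers of macrophages and leukocytes were also higher on replicate a in both groups. Their summed level, which Cd68 dominates, was 5.75 and 4.98 with GW3965 against 5.55 and 4.82 with DMSO. Of 7 endothelial markers 5 were higher on replicate b and 1 on replicate a in both groups, with sums of 5.10 and 5.45 against 5.03 and 5.36. Of 8 measured stellate cell and fibroblast markers 5 were higher on replicate b and 2 on replicate a in both groups. Their sum, which Dcn dominates, was 6.39 and 5.73 against 6.31 and 5.74. Of 5 measured cholangiocyte markers 3 were higher on replicate b and 1 on replicate a in both groups. The sum over 5 measured cholangiocyte markers, which Spp1 dominates, was 5.84 and 6.00 with GW3965 against 5.97 and 6.25 with DMSO. Krt19, among those higher on replicate b, stood at 0.55 and 2.90 with GW3965 against -0.12 and 2.60 with DMSO. The cholangiocyte marker Krt7 and the stellate cell marker Lrat were not well above background on both arrays of either group. By treatment, 0 of 12 hepatocyte, 0 of 8 macrophage, 1 of 7 endothelial, 1 of 8 stellate and 2 of 5 cholangiocyte markers did not overlap, where 16% of all genes did not. The endothelial marker was Tek, at -0.84 and -0.53 with GW3965 against -0.85 and -1.02 with DMSO. The stellate marker was Pdgfrb, at 0.12 and -0.01 with GW3965 against -0.36 and -0.33 with DMSO. The cholangiocyte markers were Krt23, at -2.21 and -2.41 with GW3965 against -2.96 and -2.65 with DMSO, and Spp1, at 5.75 and 5.77 with GW3965 against 5.88 and 6.09 with DMSO. The part of the cell mixture in the difference of Foxo1 and in the gaps of Igfbp1, Pik3r1, Igf1 and Igfbp2 was not tested. In such bulk RNA, fewer cells of a type and less RNA per cell cannot be told apart.

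No gene of 4 further lists of the pathway passed the test adjusted over all genes. Of 34 genes of the signal chain from receptor to FOXO and mTOR, 33 were measured, of which 0 rose and 0 fell. Their median difference was -0.002, 16 had higher and 17 lower means, and 12.1% did not overlap against 16% of all genes. The smallest p-values belonged to Pik3cg, a catalytic subunit found mainly in leukocytes, with 0.32 ± 0.21 (SE), the kinase Sgk1 with -0.23 ± 0.28, the mTOR partner Rictor with 0.18 ± 0.23 and the atypical protein kinase C gene Prkcz with 0.13 ± 0.18. Among 18 inhibitors of insulin signalling, all measured, 0 rose and 0 fell, and 6 had higher and 12 lower means. The median of these inhibitors was -0.02, and 11.1% of them did not overlap against 16% of all genes. Their members of smallest p were Prkce, a kinase that blunts the receptor, with 0.18 ± 0.19, the phosphatase Ptpn2 with -0.17 ± 0.19, the lipid phosphatase Inppl1 with -0.13 ± 0.19 and the adaptor Grb14 with -0.21 ± 0.34.

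Of 15 genes of the IGF and growth hormone axis, 12 were measured, of which 0 rose and 0 fell, 4 had higher and 8 lower means, and the median was -0.10. Igfbp3, the main carrier of IGFs in blood, was at -0.18 and 0.40 on GW3965 replicates a and b, against -0.63 and -0.26 on DMSO replicates a and b. The groups did not overlap, and the difference was 0.56 ± 0.29 (SE; limma, adjusted p = 0.99997). Igfbp3 was the only measured gene of this list without overlap, 8.33% of the list against 16% of all genes. Igfals, which encodes the partner of Igfbp3 in the circulating complex, differed by 0.28 ± 0.38, the protease Pappa2 by -0.21 ± 0.25 and the growth hormone effector Stat5b by -0.13 ± 0.19. Igf2, Igfbp5 and Pappa were not measured, since their probes did not reach the background criterion in either group.

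All 18 genes on the list of FOXO and insulin responsive genes were measured. When adjusted over all genes 0 rose and 0 fell, while 1, Srebf1, had an unadjusted p under 0.05, at 1.24 ± 0.20 (SE; limma, adjusted p = 0.99997). The means of 5 were higher and of 13 lower, the median was -0.09, and 3 were higher and 3 lower without overlap, 33.3% of the list against 16% of all genes. Pdk4, which shuts pyruvate out of oxidation and is known to rise with FOXO1 activity, stood at 0.76 and 0.71 with GW3965 against 0.40 and 0.52 with DMSO, a difference of 0.27 ± 0.18. The cell cycle inhibitor gene Cdkn1b, another FOXO target, lay lower without overlap, by -0.24 ± 0.19. Klf15, a transcription factor of amino acid and glucose metabolism, differed by 0.63 ± 0.55, with overlap.

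**Figure D5:**
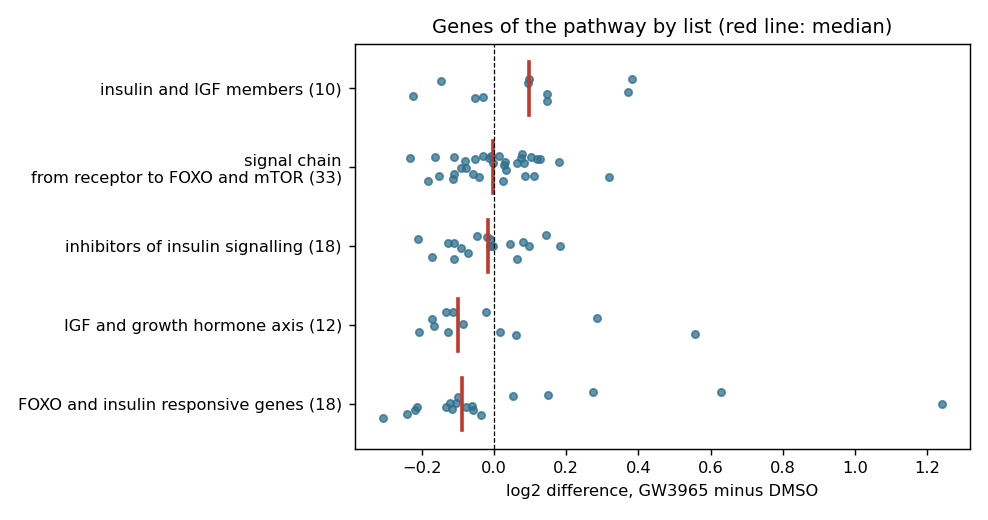
Log2 difference, GW3965 minus DMSO, of each measured gene in the 10 members and the 4 other lists of the pathway, with the number of genes in brackets and a red line at the median. The medians lie between -0.10 and 0.10, and Srebf1 at 1.24 is the point furthest to the right.

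On mm9, the build of the file headers, the probes that stand for the genes lie as follows: Insr at chr8:3154024-3154083, Irs1 at chr1:82229692-82229751, Irs2 at chr8:11004490-11004549, Akt2 at chr7:28424412-28424471, Pik3r1 at chr13:102454406-102454465, Foxo1 at chr3:52150183-52150242, Igf1 at chr10:87393561-87393620, Igfbp1 at chr11:7102442-7102501, Igfbp2 at chr1:72898813-72898872 and Igfbp4 at chr11:98913334-98913393. Probes for Insr, Irs1, Irs2 and Pik3r1 lie on the minus strand and the others on the plus strand. Exon boundaries on this build were not used here, and positions on transcripts are those in the array files.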

How the data were processed

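RNA of 4 samples was hybridised to 1-colour Agilent arrays. Per the file headers, the deposited intensity is the processed signal of Agilent Feature Extraction 10.7.3.1, already background-subtracted and detrended within each array, with no scaling from array to array; version 11.5.1.11 stands in the submitters' processing notes. The deposited value table repeats that intensity: over 62976 features the largest difference was 0. One label of the treated samples words the treatment as LXR against GW3965, and their titles say only GW with the replicate letter.

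Signals were put on the log2 scale, outlier spots left out, spots of a probe averaged, and the 75th percentile of each array subtracted. A probe was kept if well above background, by the scanner software's flag, on both arrays of at least 1 group (35479 of 55681). RefSeq accessions named 26762 probes, and the others kept the file's name. The probe with the highest mean stood for a gene. Between 62.5% and 69.1% of probes were well above background, 0 spots were saturated, and the number of arrays limits the precision. The test was two-sided, by limma (version 3.58.1, R 4.3.3) without a block, with Benjamini-Hochberg adjustment over 24637 genes, and errors are its SE. The script was tested on simulated data. Summed marker levels are log2 of the sum of linear levels. Promoters and their coordinates are RefSeq's.

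The members, the lists, the tests and the alternatives were chosen with earlier results of these data known. The text names all 10 members and, from each other list of the pathway, up to 4 genes with the smallest p. The alternatives were quantile normalization, median centring, normexp with an offset of 50, the deposited table, no background filter, a filter that asks for all 4 arrays, gene means over probes, probes fitted singly, a trended or robust prior, outlier spots kept, the replicate letter as a block, and each array left out.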

Additional observations from a re-analysis of the deposited data

How the results depend on the processing

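Under all 16 alternatives, 0 of the 10 members passed an adjusted p of 0.05. The count over all genes was 0 except with the replicate block (15) and with an array left out (0 to 66; 30 without GW3965 replicate b and 66 without DMSO replicate b). With the letter as a replicate block, 1 member had an unadjusted p under 0.05, Foxo1 (difference 0.38 ± 0.13, limma, adjusted p = 0.816), where 1335 of 24637 genes did, against 203 without the block, and no other call of a member changed. The labels do not say that a shared letter marks shared cells, and deviations of same-lettered arrays correlated at 0.72 over genes (genes are no replicates). The number of members without overlap was 3 with quantile normalization, 5 with median centring, 3 with normexp, 2 with each probe on its own, and 4 to 7 with an array left out, where 16.4%, 18.1%, 14.6%, 16.6% and 56.7 to 62.5% of all features did not overlap. With each probe on its own, the 2 counts genes with any such probe, while 16.6% is a share of single probes. Of the 21 measured probes of the members, 3 did not overlap. Foxo1 was without overlap in all 16, but many of these could not have changed that. The deposited table, the background filters, the trended or robust prior and the block use the same array values. Leaving out an array cannot make separate groups overlap. The members' median ran from -0.093 to 0.14 with an array left out. In the same runs the sign turned for Irs1 (-0.35 to 0.052), Irs2 (-0.27 to 0.21), Pik3r1 (-0.52 to 0.81), Igf1 (-0.35 to 0.24), Igfbp1 (-0.42 to 1.16) and Igfbp2 (-0.22 to 0.51), and held for Insr (-0.38 to -0.07), Akt2 (0.04 to 0.16), Foxo1 (0.26 to 0.50) and Igfbp4 (0.001 to 0.19). With each probe on its own, single probes opposed the gene's sign for Igf1 (0.15 and 0.084), Akt2 (-0.12) and Insr (0.105). The causes were not tested. With fewer arrays, groups overlap less by construction. Irs1 is the member nearest the background.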

Other observations

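On the probes that stand for the genes, Igfbp6, Htra1 and Grb10 had larger gaps between replicates than any of the 10 members. Another Igf1 probe, at position 6909, had gaps of similar size, -1.86 with GW3965 and -2.07 with DMSO for b minus a. Igfbp6, Htra1, Grb10 and the other genes here were picked after their values were seen. Igfbp6, a binding protein that prefers IGF2, lay at -2.65 and -0.73 on GW3965 replicates a and b, against -2.81 and -0.53 on DMSO replicates a and b. Htra1, a secreted protease that cleaves IGF-binding proteins, lay at 1.23 and 3.12 with GW3965 against 1.07 and 3.15 with DMSO. Grb10, an adaptor that inhibits the insulin and IGF receptors, lay at -1.19 and 0.47 with GW3965 against -1.40 and 0.70 with DMSO. In all 3 genes replicate b was higher in both groups, opposite to Igfbp1, while the differences between GW3965 and DMSO were -0.02 ± 0.99, 0.06 ± 0.93 and -0.01 ± 0.89 (SE). Igf1r, the IGF receptor gene, was also higher on replicate b, at -1.29 and -0.45 with GW3965 against -1.12 and -0.26 with DMSO. Socs2, which growth hormone induces, was higher on replicate a in both groups. It lay at 1.30 and 0.52 with GW3965 against 1.56 and 0.60 with DMSO. Ghr, the growth hormone receptor gene, lay at 3.33 and 2.87 with GW3965 against 3.41 and 3.05 with DMSO, and Stat5b had gaps of opposite sign, -0.18 for b minus a with GW3965 and 0.08 with DMSO. Hepatocyte markers were higher on replicate a beside these, and their part in the gaps was not tested.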
